A study of Saccharomyces cerevisiae with 28 samples.

Results

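The genes described here code for the proteins of the small ribosomal subunit of the budding yeast Saccharomyces cerevisiae. They were taken as every probe on the array whose gene symbol starts with RPS and a digit, leaving out RPS14B and RPS22B, and they number 51 of the 982 genes with a named probe. They hold 139 of the 1536 probes. Of the 51 genes, 38 had 3 probes, 4 had 4 probes (among them RPS25A, RPS26A and RPS29A) and 9 had 1 probe, and 20 pairs of A and B paralogs had both copies among them. The study asked how deletion of non-essential genes with suspected links to RNA processing changes splicing, on 2-colour arrays in which a mutant and a wild-type RNA were hybridised together. Of 8 mutant strains, csn12, YPR045C, ist3, csn9, pci8 and isy1 were sampled in log phase at 30 °C against wild type in log phase, with a wild type for isy1 labelled as its own match. For tgs1 and ynr004w, RNA came from cells at 30 °C (0 min) and from cells moved to 16 °C for 10, 25 or 40 min, and the wild type on each array had been kept under the same condition. The sources used here do not give strain background or mating type, or say whether strains shared a wild-type RNA. Each of the 14 strain and time combinations has 2 arrays with the dyes swapped, which count as 1 replicate, so 8 of the 10 strain-by-temperature groups rest on 1 pair and tgs1 and ynr004w at 16 °C on 3 time points each.

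The small subunit carries the decoding site, and its head, platform and body are built from these proteins on the 18S rRNA. Most yeast ribosomal proteins are coded by a pair of paralogs that arose in a whole-genome duplication, and the ribosomal protein genes are among the most highly transcribed in growing cells. A large share of the yeast genes that have an intron are ribosomal protein genes, so that they are a main load of the spliceosome. IST3 codes for a subunit of the RES complex (retention and splicing) and ISY1 for a splicing factor of the complex around Prp19. TGS1 codes for the enzyme that hypermethylates the cap of small nuclear RNAs, and YNR004W (SWM2) for a protein that works with it. CSN9, CSN12 and PCI8 belong to the yeast COP9 signalosome, and YPR045C (THP3) works with CSN12 in transcription elongation.

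Values are log2 ratios of mutant over wild type, centred on the median of each array. The direction is taken from the labels, which put the mutant in channel 1 on all 28 arrays, and if the deposited ratios run the other way every sign below turns. The array titles name the wild type first on the 14 arrays with the mutant in Cy3, so a ratio of Cy5 over Cy3 would turn those 14 arrays alone. The deleted genes gave no clear check, as IST3 stood at 0.15 in ist3 (limma adjusted p = 0.0672), ISY1 at -0.12 in isy1 (limma adjusted p = 0.116) and TGS1 at -0.09 (limma adjusted p = 0.378) and -0.28 (limma adjusted p = 0.000331) in tgs1 at 30 and 16 °C. Where their probes lie relative to the deletion is not stated in these sources. The 2 arrays of a pair differed strongly with dye: over all probes they correlated above 0 in 4 of 14 pairs, and in 12 of 14 after subtraction of the average array of each orientation, with csn9 (-0.05) and tgs1 at 30 °C (-0.37) as the exceptions. Turning the 14 arrays would give each of these correlations the opposite sign. Calls are therefore given from 2 limma fits, one on the means of the pairs and one on the 28 single arrays with a term for the dye, each at a Benjamini-Hochberg adjusted p under 0.05 over all features. The fit on pair means takes its spread from the time points at 16 °C and assumes that strains with 1 pair vary likewise. Nothing in the labels says that replicates are separate cultures, so the p-values reflect the spread of these samples alone, which may be technical. The median SE of a gene in the fit on pair means was 0.0648 for 1 pair and 0.0374 at 16 °C. Of 7 mating type marker genes measured, 7 passed the test in YPR045C, in ist3, in tgs1 and in ynr004w at both temperatures, with a lowest value of -4.62 and a highest of 5.24. The list mixes markers of alpha cells and of a cells, and these values pool both. Whether mutant and wild type differed in mating type on these arrays was not tested, nor was the part of these genes in the results.

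Probes of one RPS gene did not behave alike. In 36 of the 51 genes 2 probes stand in linked wells of the array, 2 blocks apart in the same row, and they are called the first and the second probe here. A further probe of the same gene, whose well has no such link, is called the unlinked probe. Whether a probe follows an intron, a splice junction or an exon is not stated, so the classes are places on the array. Which linked well is called first was set after the differences between linked wells had been seen over all genes in ist3, isy1 and ynr004w at 16 °C, after an ordering by block alone had mixed both signs. The common sign in those 3 groups is therefore fixed by that choice and is a description. The other 7 groups were not used for it.

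The first probes of the RPS genes were higher in the ist3, tgs1 and ynr004w strains, while the second and unlinked probes of the same genes were lower or near the wild type. In ist3, 34 of 36 first probes rose and 0 fell, with a median log2 ratio of 0.79, where 26.0% of all 1535 probes tested passed as higher and 30.9% as lower. The single-array fit called 26 of them, against 14.3% of all probes. These shares, here and below, cover probes of every well class, and the first probes of other genes were not counted apart. For ist3, isy1 and ynr004w at 16 °C the counts of first and second probes are a description. The arrays of those groups were used to set which well is called first. Over all 196 genes with linked wells, the median of first minus second probe was 0.53 in ist3, beside 0.91 in members. At 16 °C it was 0.37 in tgs1 and in ynr004w, beside 0.67 and 0.72. A first probe above the second was thus not particular to RPS genes. Second probes had a median of -0.08 in ist3, with 5 higher and 12 lower, and unlinked probes a median of -0.17, with 1 higher and 16 lower. In tgs1 at 16 °C, 35 of 36 first probes rose, with a median of 0.52, beside 3 higher and 19 lower second probes and 0 higher and 17 lower unlinked probes. Of all probes 24.4% were called higher and 25.6% lower in that group, and 20.4% were called in the single-array fit, which had 33 first probes higher. In ynr004w at 16 °C, 35 of 36 first probes rose in both fits, with a median of 0.59, where 18.2% of all probes were called higher and 18.2% lower on pair means and 15.5% passed in the single-array fit. At 30 °C 26 first probes rose in tgs1 (6.78% of all probes called higher, 5.15% lower) and 18 in ynr004w (5.41% higher, 6.06% lower), with medians of 0.41 and 0.36.

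In isy1 the split between the probe classes came as much from loss at the second and unlinked probes as from gain at the first. Of the first probes 17 rose and 3 fell, with a median of 0.27, where 19.8% of all probes were called higher and 23.5% lower. Of the second probes 3 rose and 21 fell, with a median of -0.28, and of the unlinked probes 1 rose and 25 fell, with a median of -0.41. The single-array fit, which called 16.2% of all probes, found 16 second and 15 unlinked probes lower. In YPR045C first probes had a median of 0.20 with 35 of 36 above 0, but 5 passed (7.17% of all probes called higher, 8.01% lower) and 0 did in the single-array fit, which called 1.24% of all probes. In csn12 2 first probes passed (13.2% of all probes called higher, 18.0% lower), in csn9 2 (11.1% and 10.0%) and in pci8 4, of which 3 were higher (28.4% in either direction), with medians of 0.04, 0.05 and 0.02. Of all 139 member probes the single-array fit called 13 in csn12 (5.28% of all probes), 1 in csn9 (0.521%), 4 in pci8 (1.5%), 11 in tgs1 at 30 °C (2.35%) and 5 in ynr004w at 30 °C (1.82%).

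**Figure D1:**
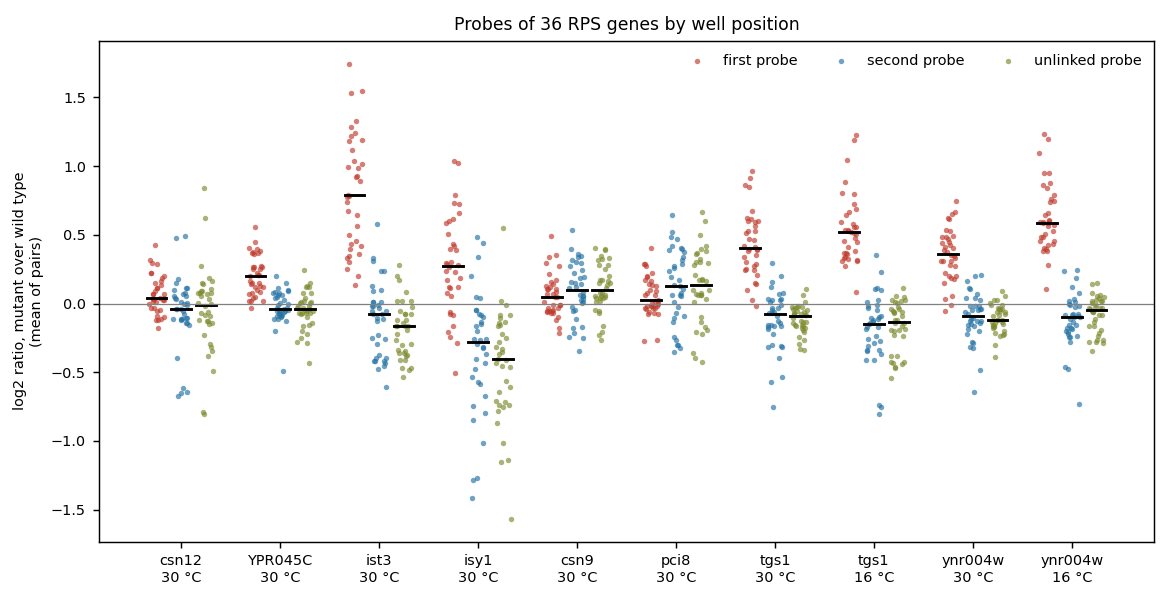
Log2 ratio of mutant over wild type (vertical axis) for the first, second and unlinked probe of 36 RPS genes in each strain and temperature (horizontal axis), each point the mean over pairs of 1 probe and each black bar the median. The first probes stand above the others in ist3, tgs1 and ynr004w, with medians of 0.79 in ist3 and 0.59 in ynr004w at 16 °C, while the 3 classes overlap in csn9 and pci8. Arrays of ist3, isy1 and ynr004w at 16 °C were used to set which probe is called first.

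RPS0B shows the split most plainly in ist3. It codes, like RPS0A, for the small subunit protein needed for maturation of the 18S rRNA. Its first probe stood at 1.14 and 2.35 on the 2 ist3 arrays, its second at -0.17 and -0.58 and its unlinked probe at 0.03 and 0.00. The first probe was thus high on both arrays and the other probes were at or below the wild type, with no overlap. The first minus second difference was 1.31 and 2.93 on the 2 arrays, with a mean of 2.12 ± 0.15 (SE, 1 pair, limma adjusted p = 1.09e-06). The ist3 arrays were used to set which well is called first. The sign is therefore a description, and the p-value gives no independent support for it.

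Within genes, the first probe exceeded the second in nearly all RPS genes in ist3. Of 36 members 35 passed as higher and 0 as lower, where 69.9% of the 196 genes with linked wells passed in either direction, and the single-array fit called 30 members, against 55.1% of all. The common direction is a description here too, as these arrays were used to set which well is called first. The median difference was 0.91 over the members and 0.53 over all 196 genes. After RPS0B the largest differences with one sign on both arrays were those of RPS26A (1.24 and 1.97), RPS19B (1.05 and 2.06) and RPS18B (1.18 and 1.86). RPS26 and RPS18 are proteins of the platform near the mRNA exit and of the head, and RPS19 is a head protein. RPS23B did not pass, with 0.47 and -0.28 on its arrays (mean 0.10 ± 0.13 SE, limma adjusted p = 0.5). RPS23 is a protein of the decoding centre.

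In isy1 the same difference had a median of 0.65 over members and 0.29 over all 196 genes. There 26 of 36 members were higher and 3 lower, where 52.6% of the 196 genes passed. The isy1 arrays were also used to set which well is called first, so the prevailing sign is a description. The single-array fit called 19 higher and 3 lower, against 34.2% of all. Among the members with the widest differences was RPS21A, at 1.83 and 2.01 on the 2 arrays, with RPS26B at 2.21 and 1.53 and RPS19B at 1.49 and 1.90. The first probe of RPS21A stood at 0.28 and 0.74 and its second at -1.55 and -1.28, so that both arrays show gain and loss within 1 gene.

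Among the 3 members that went the other way in isy1 was RPS14A. The difference in RPS14A, which codes for a platform protein, was -1.29 and -0.11 on the arrays (mean -0.70 ± 0.19 SE, limma adjusted p = 0.00752). Its first probe fell (-0.73 and -0.27) in isy1, but rose to 0.75 and 1.74 in ist3, where the difference was positive.

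In tgs1 and ynr004w 34 of 36 members passed as higher and 0 as lower at 16 °C, in both fits. The ynr004w arrays at 16 °C were among those used to set which well is called first, so their common sign is a description. The tgs1 arrays were not used for it. Of the 196 genes with linked wells, 73.0% passed in tgs1 and 71.4% in ynr004w in the fit on pair means, and 63.8% and 60.7% in the single-array fit. The median difference over members was 0.67 in tgs1 and 0.72 in ynr004w, beside 0.37 over all 196 genes in each strain. RPS21A led in both strains. Over its 6 arrays in tgs1 at 16 °C the difference ran from 1.23 through a median of 1.52 to 2.07 (mean 1.62 ± 0.09 SE, 3 pairs, limma adjusted p = 7.71e-08). In ynr004w at 16 °C it ran from 1.07 through 1.61 to 2.04 (mean 1.61 ± 0.09 SE, limma adjusted p = 1.23e-07). All 12 values lay above 1, and both the gain of the first probe (0.88 in each strain) and the loss of the second (-0.74 in tgs1, -0.73 in ynr004w) passed.

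RPS18B, RPS16B, RPS19B and RPS0B followed, RPS16 being a head protein close to the decoding site. RPS18B had means of 1.53 in tgs1 and 1.38 in ynr004w at 16 °C, RPS16B 1.48 and 1.43, RPS19B 1.45 and 1.302, and RPS0B 1.42 and 1.33, each ± 0.08 to 0.11 (SE, 3 pairs). RPS0B differed widely between arrays, from 0.06 to 2.74 over the 6 tgs1 arrays. RPS14A did not pass at 16 °C in either strain, at 0.11 ± 0.11 (SE) in tgs1 and -0.01 ± 0.11 in ynr004w. It had values of both signs among the 6 arrays of each strain.

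**Figure D2:**
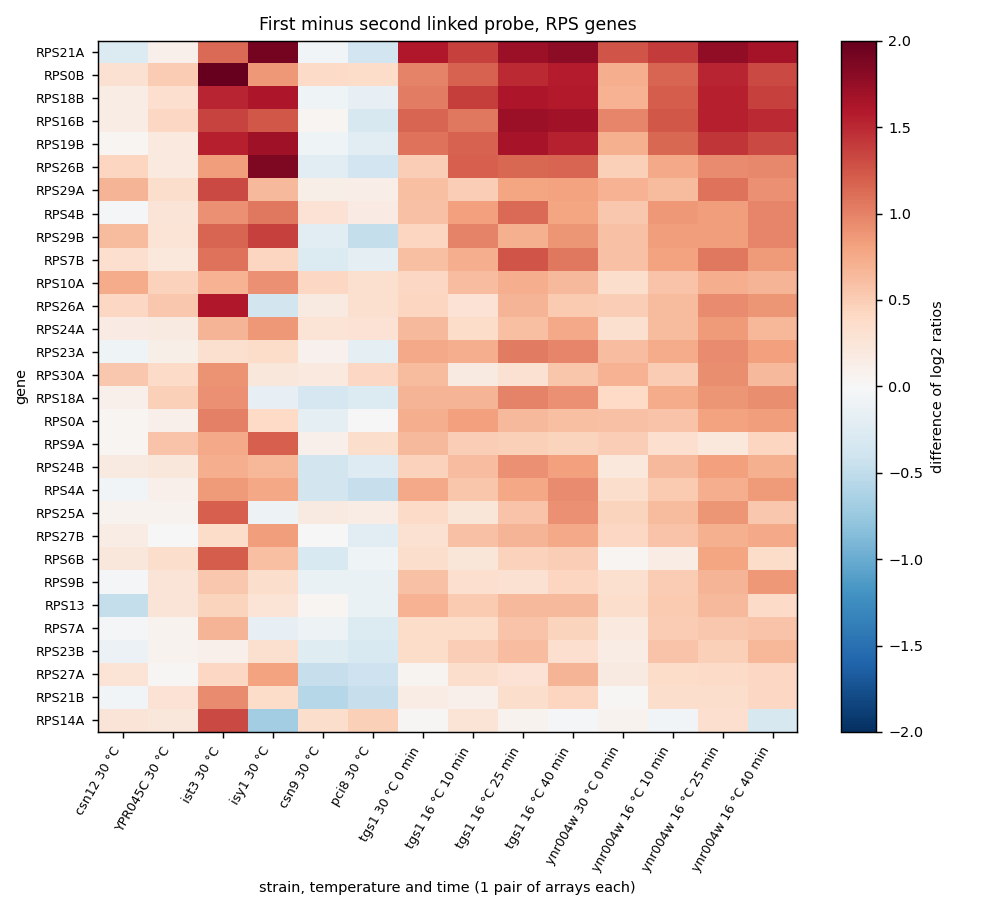
First minus second probe (log2 ratio, colour scale from -2 to 2) for 30 of the 36 RPS genes (rows) in each of the 14 array pairs (columns). Red fills the ist3 column apart from RPS23B and most of the tgs1 and ynr004w columns, isy1 holds deep reds and RPS14A in blue, and csn12, csn9 and pci8 are pale; RPS0B in ist3 (2.12) lies past the end of the scale.

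At 30 °C the difference stood above 0 in most members in tgs1 and ynr004w, though the 2 tgs1 arrays did not follow each other over the member probes (r = -0.49 after subtraction of the average array of each orientation). In tgs1 27 of 36 members passed as higher and 0 as lower (31.1% of the 196 genes called), with a median of 0.59, and 14 did so in the single-array fit (13.8% called). In ynr004w 22 passed as higher (32.7% called), with a median of 0.47, and 10 in the single-array fit (8.67% called). RPS21A again led in tgs1, at 1.48 and 1.72 on its 2 arrays, and in ynr004w, at 0.98 and 1.54.

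In the 4 remaining strains few members passed. The median difference was 0.22 in YPR045C, with 34 of 36 members above 0 (0.16 over all 196 genes), 0.09 in csn12, -0.02 in csn9 and -0.13 in pci8. In csn12 5 members were higher and 1 lower (15.3% of the 196 genes called), in YPR045C 4 and 0 (8.16% called), in csn9 1 and 1 (8.16% called) and in pci8 1 and 4 (16.8% called). The single-array fit left 1 member in csn12 (2.55% called) and 0 in the other 3, where it called 0.0% of all genes. That member was RPS10A, a head protein, at 1.159 and 0.33 on the csn12 arrays (mean 0.75 ± 0.11 SE, limma adjusted p = 0.00176). Its second probe fell (-0.72 and -0.50) and its unlinked probe too (-0.78 and -0.83), with the first at 0.44 and -0.17. In csn12 RPS29A and RPS29B, a pair that codes for a zinc-binding head protein, likewise had a first probe near 0 (0.04 and -0.05) and a second that fell (-0.65 and -0.68).

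Averaged over its probes, an RPS gene moved less than its single probes, and the count of genes higher or lower depended on the first probes. In ist3 20 members rose and 7 fell in the fit on pair means (26.7% of 982 genes called higher, 29.7% lower), but without the first probes 7 rose and 22 fell, and with the median of the probes 10 and 14. In the single-array fit 7 rose (7.74% called). Shares in brackets, here and below, are those of the fit on pair means and of the single-array fit. No share of all genes was taken for the counts without the first probes, with the median or with a pair left out. Those counts therefore have no background beside them. In tgs1 at 16 °C 20 rose and 9 fell (22.8% called higher, 23.3% lower), against 6 and 24 without the first probes and 7 and 15 with the median. In ynr004w at 16 °C 29 rose and 2 fell (16.8% called higher, 16.0% lower), against 6 and 19 without the first probes and 7 and 10 with the median. The single-array fit called 6 higher and 3 lower in tgs1 (9.98% called) and 9 higher and 1 lower in ynr004w (6.21% called). Leaving out the pair at 25 min left 16 members called in either strain, and leaving out that at 40 min left 18 in ynr004w. A gene mean can thus add probes of opposite sign, though not in every member: the first and second probes of RPS9A both rose on each ist3 array. In tgs1 at 16 °C the means of the first and second probes of RPS24A were both above 0 (0.80 and 0.23). Its second probe ran from -0.75 to 1.25 there, with 3 of 6 arrays above 0.

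The gene mean of RPS9A was the highest in ist3. It codes, with RPS9B, for a body protein that bears on decoding accuracy. RPS9A stood at 0.71 and 0.70 on the 2 arrays (mean 0.71 ± 0.06 SE, limma adjusted p = 4.56e-05). Its first probe was at 1.03 and 1.64 and its second, unlike that of most members, rose as well (0.60 and 0.56). RPS18B (0.57), RPS20 (0.57), RPS0B (0.46) and RPS7A (0.46) followed, RPS20 and RPS7 being a head and a body protein. RPS0B turned to -0.18 without its first probe. Among the 7 that fell were RPS3 (-0.42 and -0.29), RPS25B (-0.21 and -0.37), RPS10B (-0.22 and -0.36) and RPS12 (-0.14 and -0.41).

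In isy1 more gene means fell than rose. In the fit on pair means 2 rose and 25 fell (20.8% of 982 genes called higher, 21.4% lower), with 3 and 31 without the first probes, and the single-array fit called 1 higher and 9 lower (9.67% called). RPS25B fell most, to -0.86 and -0.63 on the 2 arrays (mean -0.74 ± 0.06 SE, limma adjusted p = 8.19e-06). RPS25 is a head protein used in initiation at internal ribosome entry sites. Of its 3 probes, which have no linked wells, 2 fell to means of -1.13 and -1.32 and the other stood at 0.23. RPS3 (-0.71), RPS21A (-0.68) and RPS10B (-0.67) were also among the lowest, each below 0 on both arrays. RPS15, a head protein that takes part in export of the small subunit from the nucleus, was 1 of the 2 that rose (0.38 and 0.60).

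The same RPS25B was among the lowest members in tgs1 and ynr004w. In tgs1 it was at -0.33 at 30 °C and ran from -0.51 to -0.33 with a median of -0.44 over the 6 arrays at 16 °C (mean -0.44 ± 0.03 SE, 3 pairs, limma adjusted p = 1.05e-05). In ynr004w it was at -0.25 at 30 °C and ran from -0.37 to -0.17 with a median of -0.34 at 16 °C (mean -0.30 ± 0.03 SE, limma adjusted p = 0.000205). All arrays of both strains were below 0. The gene mean of RPS10B also fell at 16 °C (-0.37 in tgs1, -0.17 in ynr004w), and RPS3 fell in tgs1 (-0.34). The 3 probes of RPS10B, which have no linked wells, differed in sign in tgs1 at 16 °C (-0.81, -0.69 and 0.39). In ynr004w at 16 °C the last of these probes stood at 0.60, above 0 on all 6 arrays. The highest gene means at 16 °C were those of RPS24A, a body protein, with 0.32 ± 0.04 (SE) in tgs1 and 0.42 ± 0.04 in ynr004w. RPS0B and RPS4B were next to it in tgs1 (0.32 and 0.27), and without their first probes they stood at -0.14 and -0.000148. In ynr004w RPS0B (0.34), RPS19B (0.29), RPS4B (0.28) and RPS30B (0.28) came after RPS24A. Their signs turned as well: without the first probes RPS0B was at -0.11, RPS19B at -0.12 and RPS4B at -0.00383, and with the median of its probes RPS30B was at -0.03444. At 30 °C 2 members rose and 2 fell in tgs1 (2.65% of 982 genes called higher, 3.05% lower) and 2 and 1 in ynr004w (2.34% and 3.56%), with 0 in the single-array fit (0.916% called in each strain).

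In csn12 5 of the 7 members that fell also passed in the single-array fit. On pair means 5 rose and 7 fell (17.9% of 982 genes called higher, 18.8% lower), and the single-array fit called 0 higher and 5 lower (4.68% called). RPS28A fell most, at -0.56 and -0.53 on the 2 arrays (mean -0.55 ± 0.06 SE, limma adjusted p = 7.83e-05), and it has 1 probe. RPS10B (-0.63 and -0.43), RPS30A (-0.74 and -0.30), RPS10A (-0.36 and -0.50) and RPS29A (-0.64 and -0.19) followed. RPS30 is a body protein. The 5 that rose, among them RPS21B at 0.28 and RPS13 at 0.23, did so in the fit on pair means alone.

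In csn9 and pci8 RPS31 was the lowest member in both. RPS31 codes for a ribosomal protein made as a fusion to ubiquitin and has 1 probe here. It stood at -0.77 and -0.53 on the csn9 arrays (mean -0.65 ± 0.09 SE, limma adjusted p = 0.000781, single-array adjusted p = 0.0712). On the pci8 arrays it stood at -0.60 and -0.64 (mean -0.62 ± 0.09 SE, limma adjusted p = 0.00119, single-array adjusted p = 0.0714). All 4 values lay far below 0, and neither passed in the single-array fit. Elsewhere its arrays ran between -0.29 and 0.49 and no group passed. On pair means 8 members rose and 3 fell in csn9 (10.8% of 982 genes called higher, 11.1% lower) and 21 rose and 4 fell in pci8 (17.4% and 14.6%). The single-array fit called 0 in csn9 (0.305% called) and 1 in pci8 (1.02% called), which was RPS15 at 0.46 and 0.32. In YPR045C 1 member fell (7.74% of 982 genes called higher, 11.2% lower), and 0 passed in the single-array fit (1.02% called).

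**Figure D3:**
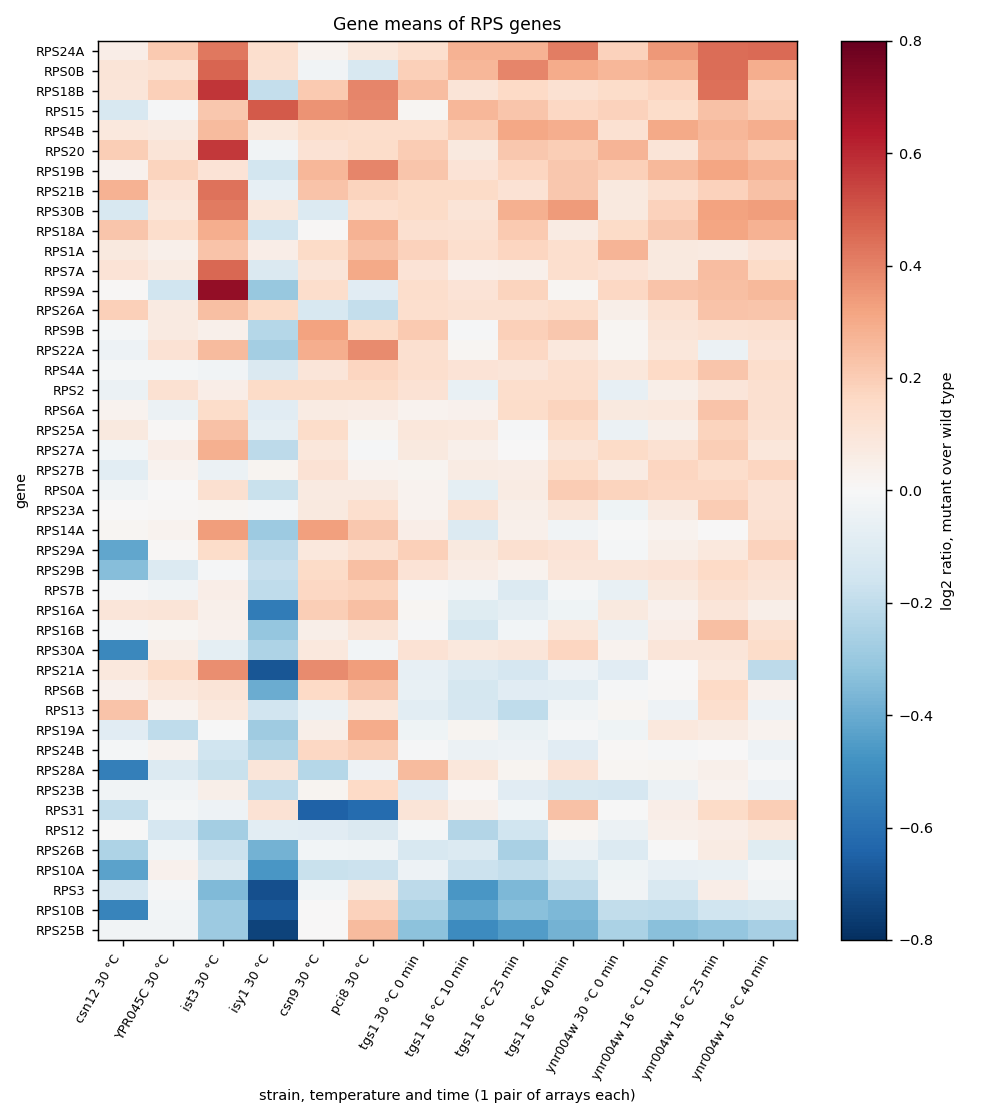
Mean log2 ratio over the probes of 45 of the 51 RPS genes (rows, in order of their mean over the pairs) in each of the 14 array pairs (columns), on a colour scale from -0.8 to 0.8. The isy1 column is mostly blue, RPS31 is dark blue in csn9 (-0.65) and pci8 (-0.62), and RPS9A (0.71) is the darkest red in ist3.

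The 9 members with 1 probe are free of the averaging over probes. RPS15 rose in ist3 (0.21), csn9 (0.36), pci8 (0.39), isy1 (0.49), tgs1 at 16 °C (0.22) and ynr004w at 16 °C (0.19), with every array of those groups above 0. RPS3, a head protein at the mRNA entry, fell in ist3 (-0.35), isy1 (-0.71) and tgs1 at 16 °C (-0.34), also on every array. RPS20 rose in ist3 (0.57) and csn12 (0.20) on both arrays, and in tgs1 at 16 °C (0.17) and ynr004w at 30 °C (0.27) and 16 °C (0.18) with arrays of both signs. RPS22A, a body protein, rose in ist3 (0.25), csn9 (0.29) and pci8 (0.38) and fell in isy1 (-0.27). RPS1A rose in ist3 (0.23), pci8 (0.23), tgs1 at 16 °C (0.15) and ynr004w at 30 °C (0.27), with every array above 0. RPS12 fell in ist3 (-0.27) and in tgs1 at 16 °C (-0.13), in the latter with arrays of both signs. RPS2 passed in no group. All calls of these 9 members are from the fit on pair means. In the single-array fit per probe, RPS15 (limma adjusted p = 0.00905) and RPS3 (limma adjusted p = 0.00215) passed in tgs1 at 16 °C. RPS1A (limma adjusted p = 0.137), RPS20 (limma adjusted p = 0.343) and RPS12 (limma adjusted p = 0.32) did not pass there. Nor did RPS20 in ynr004w at 16 °C (limma adjusted p = 0.378).

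Between paralogs, the A and B copies differed beyond the spread in a part of the 20 pairs, most often in isy1, tgs1 and ynr004w at 16 °C and ist3. A minus B was higher in 9 pairs and lower in 6 in isy1 (64.6% of 48 ribosomal protein pairs called), 9 and 5 in tgs1 at 16 °C (58.3% called), 7 and 5 in ynr004w at 16 °C (60.4% called) and 7 and 4 in ist3 (47.9% called). The single-array fit called 5 and 3 in isy1 (39.6% of the 48 pairs called), 8 and 4 in tgs1 (45.8%), 2 and 4 in ynr004w (31.2%) and 7 and 3 in ist3 (33.3%). In the fit on pair means without the first probes the counts became 10 and 4 in isy1, 11 and 2 in tgs1, 13 and 2 in ynr004w and 10 and 1 in ist3. For RPS6, RPS10, RPS16, RPS19, RPS25 and RPS30 only a single copy has linked wells. There this setting drops a probe from that copy alone, so part of the shift in counts is built in. No share of all 48 pairs was taken for this setting. Leaving out the pair at 40 min left 3 pairs called in ynr004w. Near-identical copies can share the signal of a probe, so a measured difference may understate the true one.

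RPS25 differed in the same direction in these 4 groups. A minus B was 0.33 and 0.72 on the ist3 arrays (mean 0.53 ± 0.08 SE, limma adjusted p = 1.18e-07) and 0.66 and 0.67 on the isy1 arrays (mean 0.67 ± 0.08 SE, limma adjusted p = 2.51e-10). At 16 °C it ran from 0.38 to 0.63 in tgs1 (mean 0.52 ± 0.05 SE, 3 pairs) and from 0.31 to 0.49 in ynr004w (mean 0.42 ± 0.05 SE, 3 pairs). The gene mean of the B copy was thus the lower on all 16 of these arrays, but the copies have unlike probe sets. RPS25A has 4 probes, of which the first stood at 0.53 in tgs1 at 16 °C. RPS25B has 3 probes without linked wells, at -0.66, 0.19 and -0.86 in that group. RPS24 had a difference of 0.61 and 0.55 in ist3 and 0.31 and 0.43 in isy1, with 0.20 to 0.67 over the arrays of tgs1 and 0.34 to 0.55 over those of ynr004w at 16 °C. In ynr004w at 16 °C the first probe of RPS24A was at 0.95 and that of RPS24B at 0.48.

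RPS9 differed in ist3, at 0.65 and 0.68 on the arrays (mean 0.66 ± 0.08 SE, limma adjusted p = 1.27e-09), but not in isy1 (-0.08 ± 0.08 SE, limma adjusted p = 0.423). In isy1 the second probe fell in both copies, to -1.02 in RPS9A and -0.43 in RPS9B. RPS30 was lower in its A copy in ist3 (-0.51 and -0.47), isy1 (mean -0.34) and csn12 (-0.38 and -0.39). RPS21 (-0.78 and -0.45) was lower in its A copy in isy1. RPS26 passed in ist3 and in tgs1 and ynr004w at 16 °C, but its sign turned with the dye there: -0.04 and 0.88 in ist3, and -0.53 to 0.92 in tgs1. In isy1 its arrays had one sign (0.25 and 0.81).

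In the other groups 1 to 5 pairs passed. In csn12 1 was higher and 1 lower (18.8% of 48 pairs called), in YPR045C 0 and 1 (14.6% called), in csn9 1 and 1 (16.7% called), in pci8 0 and 3 (25.0% called), in tgs1 at 30 °C 4 and 1 (20.8% called) and in ynr004w at 30 °C 0 and 1 (12.5% called). Among the pairs with one sign on both arrays were RPS19 in YPR045C (-0.06 and -0.71), RPS19 (-0.06 and -0.38) in csn9, RPS10 (-0.29 and -0.42), RPS9 (-0.24 and -0.26) and RPS25 (-0.30 and -0.17) in pci8 and RPS25 (0.54 and 0.30) and RPS10 (0.38 and 0.05) in tgs1 at 30 °C. The single-array fit called 1 higher and 1 lower in csn12 (12.5% of 48 pairs called). It kept RPS10 in pci8 (adjusted p = 0.0456, 6.25% called) and RPS25 in tgs1 at 30 °C (adjusted p = 0.0336, 8.33% called), and called 0 members in YPR045C (2.08% called), in csn9 (6.25% called) and in ynr004w at 30 °C (6.25% called).

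**Figure D4:**
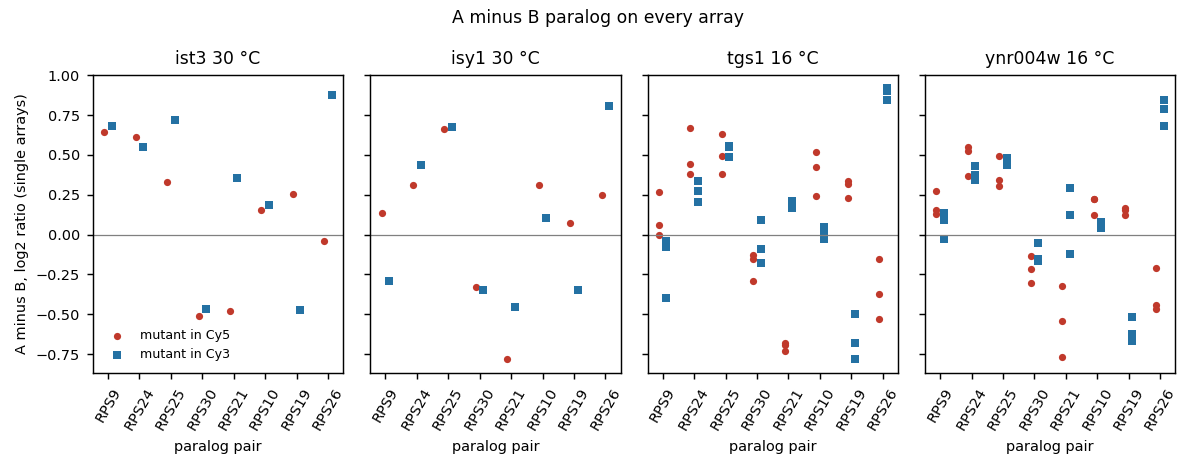
A minus B difference of the gene means (log2 ratio, vertical axis) for 8 paralog pairs on every array of ist3, isy1, tgs1 at 16 °C and ynr004w at 16 °C, with red circles for arrays that had the mutant in Cy5 and blue squares for those that had it in Cy3. RPS24 and RPS25 lie above 0 on every array shown, RPS30 lies below 0 in ist3, isy1 and ynr004w, and RPS26 and RPS19 change sign with the dye in tgs1 and ynr004w.

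Over the 10 groups the 2 copies of a pair followed each other to very different degrees. As a description, in which both copies are read from the same arrays, Pearson's r between the gene means of the copies was 0.90 for RPS16, 0.86 for RPS29 and 0.84 for RPS19, but -0.46 for RPS24 and -0.51 for RPS26. RPS14A and RPS22A have copies, RPS14B and RPS22B, that lie outside the 51 genes. RPS22B fell in ist3 (-0.92), isy1 (-1.20) and both temperatures of tgs1 (-0.70 and -0.74) and ynr004w (-0.81 and -0.84), while RPS22A was at 0.25 in ist3 and -0.27 in isy1. RPS14A minus RPS14B was 0.67 in ist3 and 0.96 in isy1.

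After the shift to 16 °C the difference between first and second probe stood higher than at 30 °C in most members, but few single genes passed a test of the change. The median over 36 members in tgs1 was 0.59 at 0 min, 0.54 at 10 min, 0.72 at 25 min and 0.76 at 40 min. In ynr004w it was 0.47, 0.63, 0.81 and 0.79. The medians at 25 and 40 min thus lay above those at 0 min in both strains, with 1 pair of arrays at each time. The difference of 16 and 30 °C was above 0 with an unadjusted p under 0.05 in 7 of 36 members in tgs1 and 13 in ynr004w, and no member had such a p below 0. Of the 196 genes with linked wells 19.4% had such a p in tgs1 and 17.9% in ynr004w, in either direction. The median change was 0.17 over members and 0.15 over all these genes in tgs1, and 0.32 and 0.16 in ynr004w. After limma adjustment 1 member passed in tgs1 (4.59% of the 196 genes called) and 0 in ynr004w (0.0% called).

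That member was RPS26B, whose first minus second difference was 0.88 and 0.11 on the 2 arrays at 30 °C and ran from 0.47 through a median of 1.17 to 1.91 at 16 °C in tgs1. By time the pair means were 0.50, 1.19, 1.15 and 1.17, with the largest change between 0 and 10 min. Each time is 1 pair of arrays, the 10 min arrays stood at 1.91 and 0.47, and the timing was not tested. The change from 30 to 16 °C did not pass in the single-array fit, which called 0 members and 0.0% of the genes. In ynr004w RPS26B went from 0.48 through 0.75 and 0.95 to 0.97, and the change did not pass.

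**Figure D5:**
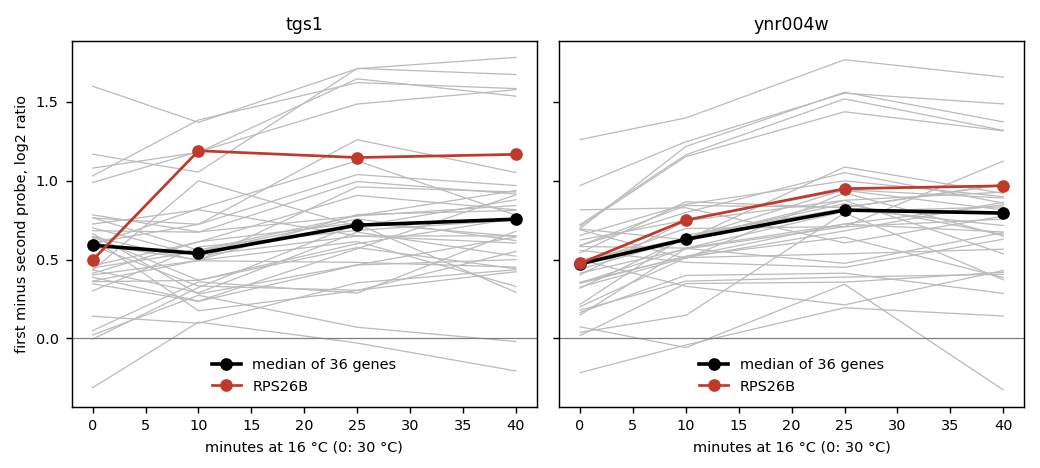
First minus second probe (log2 ratio, vertical axis) against minutes at 16 °C (horizontal axis, 0 being 30 °C) in tgs1 and ynr004w, with a grey line for each of 36 RPS genes, black for their median and red for RPS26B, each point 1 pair of arrays. The median goes from 0.59 to 0.76 in tgs1 and from 0.47 to 0.79 in ynr004w, and RPS26B in tgs1 is at 0.50 at 0 min and 1.19 at 10 min.

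The gene means did not pass in any contrast of temperature or strain. Of 51 members 0 passed for 16 against 30 °C in tgs1 or in ynr004w in limma (0.0% of 982 genes called in each), with 3 and 6 at an unadjusted p under 0.05 (18.3% and 12% of all genes), and the single-array fit gave 0 and 0 at either level. Between tgs1 and ynr004w at 16 °C 0 members passed (0.509% called), with 13 at an unadjusted p under 0.05 (14.6% of all genes), each of the 13 lower in tgs1. Leaving out the tgs1 pair at 40 min gave 4 members, each lower in tgs1, with no share of all genes taken for that fit. For the first minus second difference 0 of 36 members passed between these strains (0.51% called), and 5 had an unadjusted p under 0.05 (6.63% of all). For paralogs 0 of 20 pairs passed in any of the 3 contrasts (2.08% of 48 pairs called in each), nor in the single-array fit (0.0% called).

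The members were grouped by their place in the subunit. Of 20 genes for head proteins 1 rose and 11 fell in isy1, beside 1 and 14 of 31 genes for body and platform proteins. Of all 982 genes 20.8% were called higher and 21.4% lower there. Both copies of a paralog pair are counted. In ist3 5 head genes rose and 6 fell, and 15 of the body and platform rose and 1 fell (26.7% of all genes called higher, 29.7% lower). In tgs1 at 16 °C 5 head genes rose and 6 fell beside 15 and 3 (22.8% of all genes called higher, 23.3% lower). In ynr004w at 16 °C 9 head genes rose and 2 fell beside 20 and 0 (16.8% called higher, 16.0% lower). In csn12 5 of the 7 genes that fell were of the head, among them RPS10A, RPS10B, RPS28A and RPS29A. Of all genes 18.8% were called lower in csn12. The difference between head and body was not tested, and the groups are not matched for probe make-up. Of the head, RPS3, RPS10B, RPS15, RPS16A, RPS19A, RPS20 and RPS25B are among the genes without a first probe. Of the body, RPS22A and RPS30B are among them. As the counts of genes that rose depended on the first probes, a difference in these counts may come from the probes. That was not tested either.

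Genes that act with the RPS genes were taken from further lists. Of 17 factors of small subunit assembly 7 rose and 4 fell in ist3 and 4 rose and 4 fell in csn12, with 0 to 4 in each direction elsewhere. Of all genes 26.7% were called higher and 29.7% lower in ist3, and 17.9% higher and 18.8% lower in csn12. The single-array fit called 1 assembly factor, HAS1, a helicase, in tgs1 at 16 °C (0.21). Of 13 regulators of ribosomal protein genes, 4 rose and 4 fell in ist3, where HMO1, a DNA-binding protein found at ribosomal protein gene promoters, was at 0.53 and ESA1, a histone acetyltransferase, at 0.56. HMO1 also rose in tgs1 (0.27) and ynr004w (0.21) at 16 °C. FHL1 and IFH1, activators of ribosomal protein genes, stood at -0.33 and -0.23 in ist3. ASC1, a protein of the small subunit head that is not named RPS, rose in ist3 (0.67) and fell in isy1 (-0.53). STM1, which clamps idle ribosomes, rose in isy1 (0.43) and fell in csn9 (-0.36) and pci8 (-0.45).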

How the data were processed

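Total RNA was copied into cDNA with aminoallyl-dUTP and labelled with Cy5 or Cy3, per the labels' protocols. The deposited log ratios, 1 for each spot, were taken as log2 of mutant over wild type. The sources used here state neither the scanner, background correction and normalization of the authors nor the log base and direction. Arrays held 8893 to 9199 of 9216 spots with a value, at 6 spots per probe, and their number limits the precision. Probe names came from the platform annotation, with 982 of 982 gene identifiers found in RefSeq's genes for the R64 assembly, and 79 probes have no gene name. Probe and gene sequences were not used here.

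Arrays were centred on their medians, spots averaged to probes, the 2 arrays of a pair averaged, and probes averaged to genes. limma 3.58.1 in R 4.3.3 (lmFit, eBayes, 2-sided) was fitted to 14 pair means in 10 groups over all features, with 4 residual degrees of freedom, and to 28 single arrays with a dye term, with 13. The fit was tested on simulated data. Array numbers within a pair mark dye orientation, not cultures. The genes named were the 5 highest and 5 lowest members per group that passed and had one sign on all arrays, up to 4 paralog pairs and probe differences chosen likewise, members with 1 probe, RPS9A, RPS9B, RPS31, up to 4 genes of each further list, and, named after their values were seen, RPS23B, RPS14A, RPS26 and RPS14, RPS16, RPS22 and RPS29 pairs. The members and lists were chosen with earlier results of these data known. Some members enter the counts, medians and tests but are not reported by name here.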

Additional observations from a re-analysis of the deposited data

Results flagged for a closer look

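Over the 6 tgs1 arrays at 16 °C, the RPS24A gene mean of 0.551 on 1 array lay far above the other 5, and the RPS10A gene mean of -0.0888 on 1 array far above its other 5. Of 37 values checked in this way 2 stood out, and about 1 in 20 would by chance. The change of the RPS26B first minus second difference between 30 and 16 °C in tgs1 (0.6714) passed in the fit on pair means.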

How the results depend on the processing

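Counts are of members called by limma, with the main count first where it helps. Apart from the single-array fit, no share of all features was taken for these settings. The single-array fit, in which the dye term equals a replicate block for the array number, called 5 genes in csn12, 0 in YPR045C, 7 in ist3, 0 in csn9, 1 in pci8, 10 in isy1, 0 in tgs1 and 0 in ynr004w at 30 °C, and 9 and 10 at 16 °C. Of probes it called 13 in csn12, 1 in YPR045C, 41 in ist3, 1 in csn9, 4 in pci8, 59 in isy1, 11 in tgs1 and 5 in ynr004w at 30 °C. Of first minus second differences it called 1 in csn12, 0 in YPR045C, csn9 and pci8, 14 in tgs1 and 10 in ynr004w at 30 °C. Of paralog pairs it called 0 in YPR045C and csn9, 1 in pci8, 8 in isy1, 1 in tgs1 and 0 in ynr004w at 30 °C, and 6 in ynr004w at 16 °C. Of 129 named values 54 lost their call in it and 75 kept it. With arrays scaled to one spread the counts were 3 genes in YPR045C, 28 in csn9, 2 in tgs1 and 5 in ynr004w at 30 °C. They were 22, 69 and 81 probes in YPR045C, csn9 and pci8, then 2, 18 and 21 first minus second differences in the same strains, and 4, 4, 13, 15 and 3 paralog pairs in csn12, YPR045C, csn9, pci8 and tgs1 at 30 °C. Without the first probes 4 genes passed in YPR045C, 8 in tgs1 and 6 in ynr004w at 30 °C, and 4 paralog pairs in YPR045C, 8 in pci8 and 5 in ynr004w at 30 °C. With the median over probes 0 genes passed in YPR045C and 17 in ynr004w at 16 °C, and 4, 5 and 2 paralog pairs in csn9, pci8 and ynr004w at 30 °C. By construction these settings drop or damp the first probe, in some paralog pairs that of a single copy. They turned the sign of RPS18A in csn12 (-0.03524 with the median), RPS0B in ist3 (-0.18 without), RPS0B in tgs1 (-0.0909 and -0.14) and ynr004w (-0.05842 and -0.11), RPS19B (-0.03265 and -0.12) and RPS30B (-0.03444) in ynr004w, RPS4B in tgs1 (-0.000148) and ynr004w (-0.00383), and the RPS0 pair in ynr004w (0.02966 and 0.0015), all at 16 °C for the last 2 strains. The 2 differences chosen after seeing the data, first minus unlinked and first minus the mean of both others, gave 0 and 1 in csn9 and 2 for the latter in pci8, and stayed within 1.5 times in the other groups. Leaving out 1 time point gave 1 to 3 genes in YPR045C, 1 to 4 in tgs1 and 1 to 4 in ynr004w at 30 °C, 16 to 27 in tgs1 and 16 to 34 in ynr004w at 16 °C, and 0 to 4 between these strains. It gave 10 to 17 probes in YPR045C. First minus second differences ranged from 1 to 8 in YPR045C, 0 to 6 in csn9 and 1 to 11 in pci8. Paralog pairs ranged from 1 to 2 in YPR045C, 0 to 2 in csn9, 1 to 3 in pci8, 0 to 1 in ynr004w at 30 °C and 3 to 12 at 16 °C. Centring on genes with 1 probe and keeping probes with both arrays of every pair moved no count by over 1.5 times. Except where named, the cause was not tested.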
